A study of Homo sapiens with 30 samples.

Results

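The S100 genes encode small calcium-binding proteins, and 10 of them were followed here in T47D, an established line of human breast carcinoma cells of luminal type that carries the progesterone receptor. The 10 members were S100P, S100A1, S100A6, S100A8, S100A9, S100A10, S100A11, S100A13, S100A14 and S100A16, taken by name from the 60554 genes counted in each library. S100P lies on chromosome 4, and the other 9 lie within a gene cluster on chromosome 1. All 10 had enough counts to be tested in every comparison, and none was left out.

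S100 proteins fold around EF-hands, loops that grip calcium, and most act as dimers. Inside the cell, calcium exposes a surface on the dimer that binds target proteins such as annexins, ezrin, non-muscle myosin and calcium pumps. Some are also released and act on receptors such as RAGE and TLR4. Several are used as markers of breast and other carcinomas, and S100A8 with S100A9 forms calprotectin, the abundant calcium protein of neutrophils.

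The study asked how the transcription factor C/EBPα (gene CEBPA) and DNA topoisomerase IIα take part in gene regulation by progestins. RNA-seq was made from 6 groups of 2 libraries. In the siControl and siCEBPA groups, cells received a control siRNA or an siRNA against CEBPA, were held for a short arrest of 4 h, and were then left untreated or given progestin, which the protocol names as R5020 at 10 nM and the titles as progesterone. These untreated libraries have the time label T0 and the treated ones T360 without a unit, and no untreated library has T360, so an effect of hormone and an effect of elapsed time cannot be told apart. The 4 ICRF libraries, untreated or given progestin, name neither siRNA nor arrest nor time. The labels leave ICRF unexplained. The name is commonly used for topoisomerase II inhibitors, and the design text speaks of Topo2a inhibition. Between ICRF and siControl libraries, the drug, the siRNA transfection, the arrest and the time therefore cannot be told apart. All libraries came from 1 cell line at passages 18 to 20, and nothing says that replicates were grown as separate cultures, so p-values measure the spread between these libraries. ChIP-seq samples of the same series were not used here.

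Libraries held 57364785 to 148624099 counted read pairs, and the deepest, siControl untreated replicate 2, held more than any other by a wide margin. CEBPA itself, the siRNA target, had a log2 change of -2.16 ± 0.07 (SE) without and -1.76 ± 0.06 with progestin in siCEBPA against siControl libraries (adjusted p = 2.75e-11 and 7.53e-11). It still rose with progestin in siCEBPA cells, by 2.39 ± 0.07. Of 12 luminal epithelial markers, all 12 averaged at least 1 CPM (read pairs of a gene as counts scaled to the library's total, with TMM factors). Their summed level was 5483 to 11541 CPM and was lowest in the ICRF progestin libraries, where all 12 were lower than in ICRF untreated libraries. With progestin 8 of the 12 were lower and 1 higher in siControl cells, and 9 and 1 in siCEBPA cells. The sums were 10017 to 10678 CPM in siControl and 7790 to 8549 CPM in siCEBPA libraries, and the part of this shift in the S100 values was not tested. Of 12 neutrophil, monocyte and blood markers none averaged 1 CPM. Of 12 keratinocyte and basal markers measured, 2 did (KRT10 and IVL), and of 10 fibroblast and endothelial markers 3 did. In RNA from many cells, fewer cells with a transcript and less transcript per cell cannot be told apart.

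The sequences just upstream of a RefSeq start of 4 members are shown because these genes frame the results. All 4 lie inside the gene spans over which read pairs were counted. Those spans begin further upstream, and windows before the span starts were not used. S100P and S100A10 had the largest rises of the members with progestin in siControl cells and moved in opposite directions after CEBPA siRNA, while S100A11 and S100A1 held the only matches to the C/EBP-type and steroid receptor motifs searched. Each window is the 250 bases before the RefSeq start on build GRCh38.p14, written 5′ to 3′ on the gene's strand, with motif matches in capitals, of which S100A10 had none. They lie at chr4:6693628-6693877 on the plus strand (S100P), chr1:151993860-151994109 on the minus strand (S100A10), chr1:152037005-152037254 on the minus strand (S100A11) and chr1:153628184-153628433 on the plus strand (S100A1).
S100P: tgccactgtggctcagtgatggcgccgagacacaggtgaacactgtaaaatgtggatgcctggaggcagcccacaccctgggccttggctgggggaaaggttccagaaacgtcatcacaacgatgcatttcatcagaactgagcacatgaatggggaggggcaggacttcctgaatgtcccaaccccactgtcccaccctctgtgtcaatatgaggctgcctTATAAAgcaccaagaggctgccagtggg
S100A10: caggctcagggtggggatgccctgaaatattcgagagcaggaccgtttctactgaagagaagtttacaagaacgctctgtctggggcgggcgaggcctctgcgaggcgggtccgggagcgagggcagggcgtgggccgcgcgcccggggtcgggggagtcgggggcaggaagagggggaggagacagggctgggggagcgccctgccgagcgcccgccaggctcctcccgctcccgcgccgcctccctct
S100A11: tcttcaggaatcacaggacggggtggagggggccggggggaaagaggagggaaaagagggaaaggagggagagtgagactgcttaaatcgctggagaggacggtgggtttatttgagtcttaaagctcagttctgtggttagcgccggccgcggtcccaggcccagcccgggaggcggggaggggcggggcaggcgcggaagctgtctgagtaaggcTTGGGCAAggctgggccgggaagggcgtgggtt
S100A1: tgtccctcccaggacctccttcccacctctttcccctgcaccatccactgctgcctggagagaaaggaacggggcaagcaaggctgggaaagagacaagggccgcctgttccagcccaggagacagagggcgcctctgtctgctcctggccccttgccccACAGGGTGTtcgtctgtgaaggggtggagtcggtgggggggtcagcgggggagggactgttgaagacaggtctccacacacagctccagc

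All 10 members matched the RefSeq promoter table, with 15 windows because S100A8, S100A13 and S100A16 have several starts. Motifs were searched on both strands in these and in all 35116 windows of the table. The C/EBP-type pattern TTGCNNAA was found in S100A11 (TTGGGCAA, the pattern read on the opposite strand, first base 33 bases before the start) and in no other member, against 9.05% of all windows. The exact palindrome TTGCGCAA, a special case of that pattern, was in no member window and in 0.131% of all. The steroid receptor core ACANNNTGT, which can overlap the half-site TGTTCT, was found in S100A1 (ACAGGGTGT, first base 90 before the start) and in 4.61% of all windows. The half-site TGTTCT and the AP-1 pattern TGANTCA were in no member window and in 12.4% and 6.57% of all. The TATA box letters TATAAA, searched on the gene's strand only and added after the windows had been seen, stood 28 bases before the start of S100P and 29 before a start of S100A8, S100A9 and S100A13, and 126 before another start of S100A8. The S100A8 matches are the same site seen from starts 97 bases apart. The letters were thus in windows of 4 of the 10 members, against 6.8% of all windows. A match describes letters, not a bound site.

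Levels between genes were compared per length, in TPM, which divides the counts by the gene's exon length and scales them to the library. This length takes all annotated exons of a gene together, from 577 bases for S100A9 to 3030 for S100A1. The order, the shares and the sums of the members thus rest on the annotation. S100A11 was the highest member in all 12 libraries, at 2444 to 3555 TPM. S100A10 (484 to 2207 TPM), S100A16 (513 to 1014 TPM) and S100A6 (304 to 952 TPM) followed by their medians, but their ranges overlapped. S100P ran from 27.8 to 1001 TPM, which spans the levels of S100A13 (60.1 to 119 TPM) and S100A6. S100A9 (18.1 to 65.9 TPM) and S100A1 (5.69 to 34 TPM) were lower. S100A14 lay at 1.73 to 8.05 TPM and S100A8 at 0.123 to 1.17 TPM, the lowest of the 10 in every library. The members together summed to 4495 and 4571 TPM in siControl untreated libraries and to 7067 and 7282 TPM in siControl progestin libraries. They summed to 4597 and 4764 TPM in siCEBPA untreated and to 7680 and 7870 TPM in siCEBPA progestin libraries. In ICRF libraries the sums were 5384 and 5455 TPM untreated and 5771 and 5775 TPM with progestin. S100A11 made up 64.8% and 65.5% of the summed level in siControl untreated libraries and 47.6% and 48.8% with progestin, while S100P went from 2.4% and 2.75% to 13.1% and 13.7%.

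**Figure D1:**
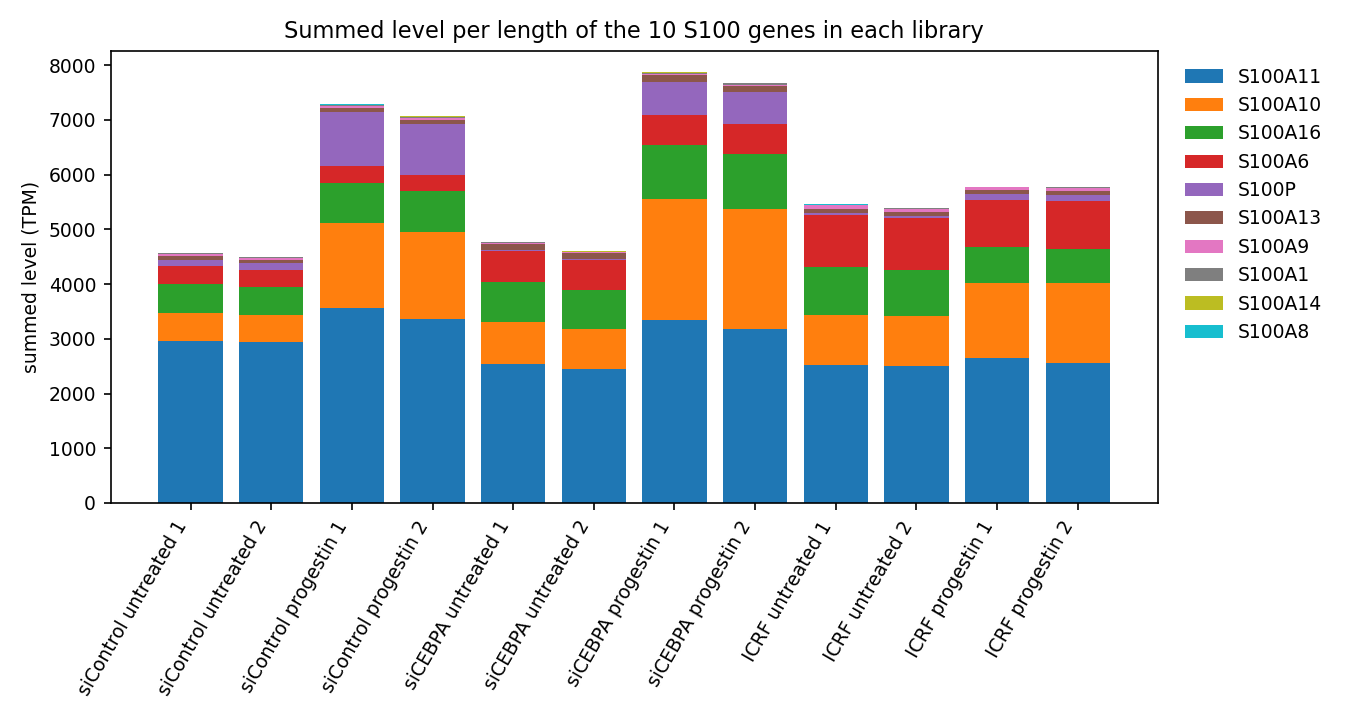
Stacked bars give the level per length (TPM) of each of the 10 S100 genes in each of the 12 libraries, which are named by group and replicate. The bars reach 7067 to 7870 TPM in the progestin libraries of the siRNA groups, against 4495 to 4764 TPM in their untreated libraries and 5384 to 5775 TPM with ICRF.

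Progestin in siControl cells went with more RNA of 7 members and with less of none. S100P rose the most, followed by S100A10 and S100A1, then S100A14, S100A16, S100A11 and S100A13, while S100A6, S100A8 and S100A9 did not pass the test. The test was edgeR's quasi-likelihood test, with p-values adjusted by the Benjamini-Hochberg method over all genes and a threshold of 0.05. In the same comparison 58.5% of the 18351 genes tested passed, 29.2% as higher and 29.3% as lower. The members' median log2 change was 0.50, against -0.03 for all genes. In siCEBPA cells the same 7 members were higher with progestin and none was lower, where 58.2% of genes passed, 29.9% as higher and 28.4% as lower. The median there was 0.62, against -0.03.

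With ICRF the picture was mixed. S100P and S100A10 rose with progestin, S100A6, S100A9, S100A13 and S100A16 fell, and the other 4 did not pass, where 61.4% of 18556 genes passed, 31.3% as higher and 30% as lower. The members' median was -0.09, against -0.01 for all genes. Tested directly, the response with ICRF was below that in siControl cells for 8 of the 10 members, all except S100A8 and S100A9, where 48.9% of 19003 genes passed, 24.9% as higher and 24% as lower. The members' median difference was -0.62, against 0.02. For S100A6 the difference depended on the scaling. It was -0.006 without scaling factors (edgeR adjusted p = 0.939) and -0.12 with upper quartile scaling (adjusted p = 0.0844). Without the low-count filter it was -0.13 (adjusted p = 0.136). The S100A6 call was also lost without siControl untreated replicate 2, siControl progestin replicate 1 or 2, or ICRF untreated replicate 1 (-0.14, -0.15, -0.16 and -0.14). For S100A14 the call was lost without scaling factors (-0.63, adjusted p = 0.0614) and without the filter (-0.75, adjusted p = 0.0568). It was also lost without siControl untreated replicate 2, siControl progestin replicate 2, ICRF untreated replicate 1 or ICRF progestin replicate 2 (-0.71, -0.68, -0.60 and -0.77).

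**Figure D2:**
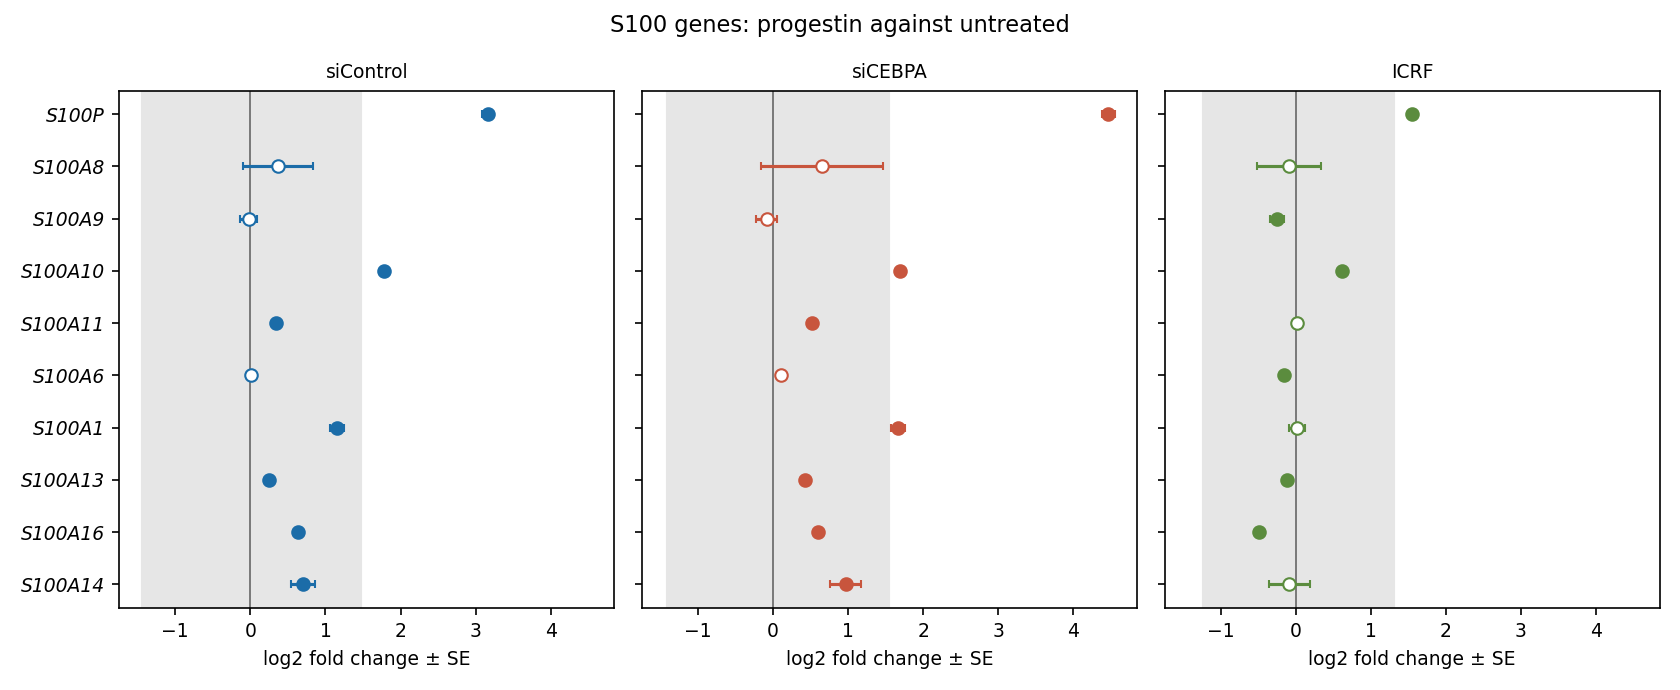
Points give the log2 fold change of progestin against untreated libraries for each S100 gene, with bars for the SE, in siControl, siCEBPA and ICRF cells (n = 2 libraries in each group). Filled points passed an adjusted p of 0.05, and the grey band holds the middle 90% of all genes tested. S100P lies right of the band in all 3 panels (3.16, 4.46 and 1.55).

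The CEBPA siRNA went with changes in all 10 members, in both directions. S100A8 entered these tests only through its counts in siControl libraries. Without hormone S100A1, S100A6, S100A10, S100A13 and S100A16 were higher in siCEBPA than in siControl cells, and S100P, S100A8, S100A9, S100A11 and S100A14 were lower, where 46.6% of genes passed, 22.6% as higher and 24% as lower. With hormone the same 5 were higher and the same 5 lower, where 44.6% passed, 22.5% as higher and 22.1% as lower. The medians of the members were -0.03 and 0.04, against 0.01 and 0.02 for all genes. The call of S100A8, at very low counts, was lost whenever any 1 library of the comparison was left out. The size of the progestin response itself differed between siCEBPA and siControl cells for 2 members, S100P and S100A1, both with the larger log2 response in siCEBPA cells, where 7.24% of genes passed, 4.19% as higher and 3.06% as lower. The hormone and knockdown comparisons share libraries, so their values are set side by side and not taken as separate evidence.

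**Figure D3:**
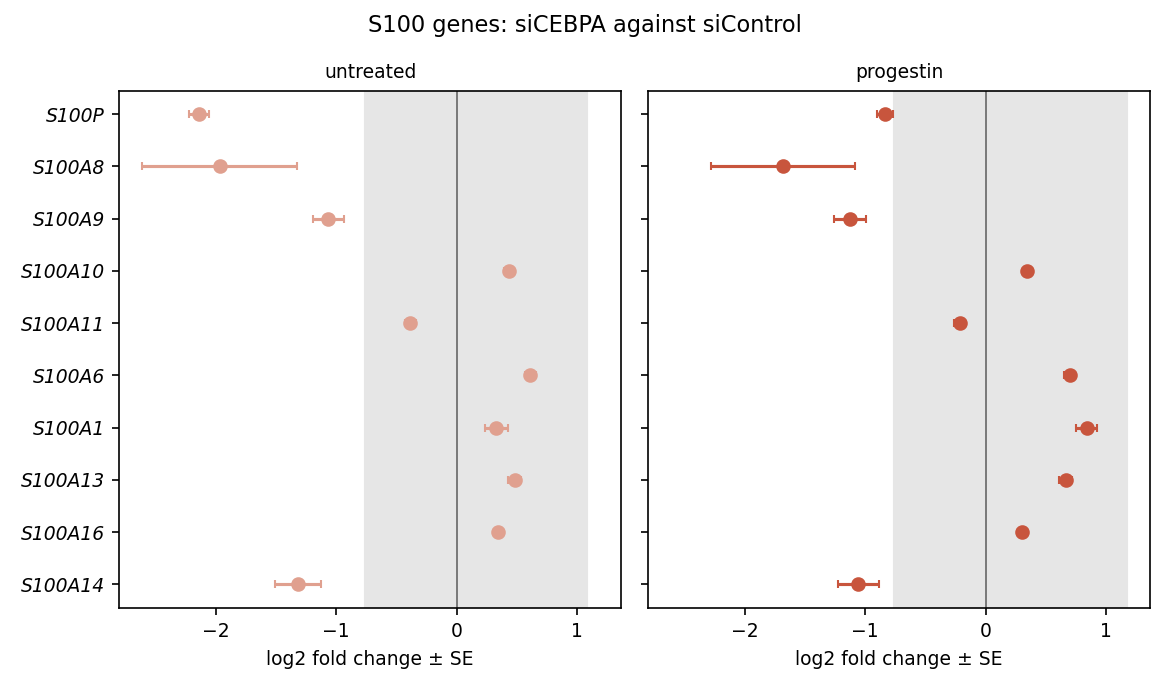
Points give the log2 fold change of siCEBPA against siControl libraries for each S100 gene, with bars for the SE, in untreated and in progestin-treated cells (n = 2 libraries in each group). Filled points passed an adjusted p of 0.05, and the grey band holds the middle 90% of all genes tested. In both panels 5 genes lie right of 0 and 5 left of it, and S100P moves from -2.14 to -0.84.

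S100P, a ligand of RAGE that also binds and opens ezrin, spans chr4:6693069-6697170 on the plus strand with 2 exon blocks (hg38, GENCODE 24). Its level was 35.8 and 42.1 CPM in siControl untreated libraries and 368 and 336 CPM in siControl progestin libraries. In siCEBPA cells it was 8.42 and 9.19 CPM untreated and 197 and 193 CPM with progestin, so the siCEBPA progestin libraries lay above both siControl untreated libraries and below both siControl progestin ones. With ICRF it was 12.6 and 11.4 CPM untreated and 35.5 and 35.5 CPM with progestin, just below the lowest siControl untreated value. The order from low to high was siCEBPA untreated, ICRF untreated, ICRF progestin, siControl untreated, siCEBPA progestin and siControl progestin. No groups overlapped, but ICRF progestin and siControl untreated lay closer to each other than the siControl untreated replicates did.

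The log2 change of S100P with progestin was 3.16 ± 0.07 in siControl cells (8.93-fold, adjusted p = 3.09e-12), 4.46 ± 0.08 in siCEBPA cells (22.1-fold, adjusted p = 4.56e-13) and 1.55 ± 0.06 with ICRF (2.93-fold, adjusted p = 2.3e-25). After CEBPA siRNA it fell by 2.14 ± 0.08 without hormone and by 0.84 ± 0.07 with hormone (adjusted p = 1.98e-09 and 1.14e-06), which left 22.6% and 55.5% of the siControl mean. The difference of responses was therefore positive on the log2 scale, 1.31 ± 0.11 for siCEBPA against siControl (adjusted p = 2.74e-05). On the CPM scale it had the opposite sign, since S100P gained 313 CPM in siControl and 186 CPM in siCEBPA cells. Whether the knockdown goes with a stronger or a weaker response of S100P thus depends on the scale. Against siControl, the response with ICRF was smaller on both scales, with a difference of -1.60 ± 0.10 on the log2 scale (adjusted p = 3.28e-09) and a gain of 23.5 CPM.

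**Figure D4:**
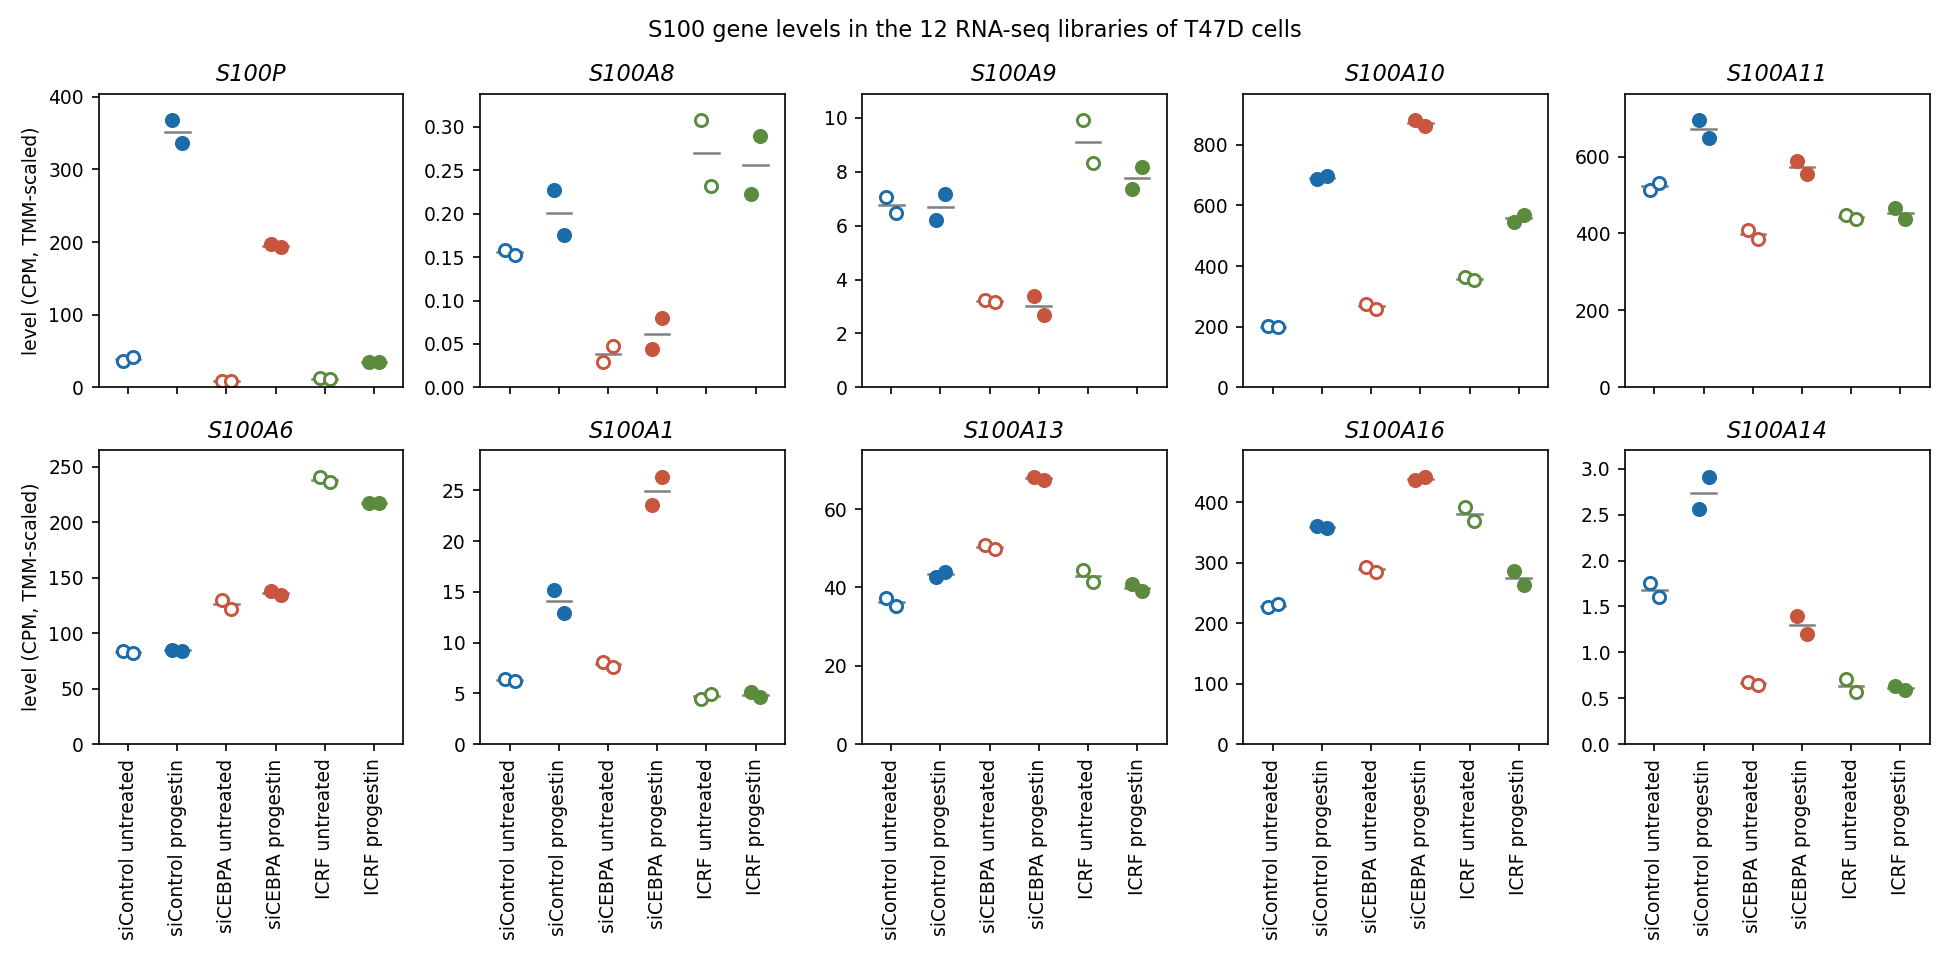
Each panel shows 1 S100 gene, with the level in CPM of the 2 libraries of each of the 6 groups as points and their mean as a grey line; open points are untreated and filled points progestin, and each vertical axis starts at 0. S100P stands at 336 and 368 CPM in siControl progestin libraries, against 8.42 to 42.1 CPM in all untreated libraries, while S100A6 is highest in the ICRF libraries (217 to 241 CPM).

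S100A9 and S100A8, the subunits of calprotectin, lie on chromosome 1 at 153357854-153361027 and 153390032-153391188. S100A9 stood at 7.07 and 6.48 CPM in siControl untreated, 6.22 and 7.18 in siControl progestin, 3.23 and 3.16 in siCEBPA untreated and 3.37 and 2.67 CPM in siCEBPA progestin libraries. All 4 siCEBPA values of S100A9 lay below all 4 siControl values, and progestin did not separate the libraries in either. Its log2 change after CEBPA siRNA was -1.07 ± 0.13 without and -1.13 ± 0.13 with hormone (adjusted p = 4.59e-06 and 3.89e-06). Its change with progestin was -0.02 ± 0.12 in siControl (adjusted p = 0.876) and -0.09 ± 0.14 in siCEBPA cells (adjusted p = 0.626). With ICRF, S100A9 was at 9.91 and 8.32 CPM untreated and 7.37 and 8.18 CPM with progestin, a change of -0.25 ± 0.09 (adjusted p = 0.0182). DESeq2 did not call it (adjusted p = 0.076), nor did edgeR without ICRF untreated replicate 1 or ICRF progestin replicate 1 (adjusted p = 0.415 and 0.125).

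S100A8 was near the limit of counting, with 11 and 23 read pairs in siControl untreated, 14 and 10 in siControl progestin, 2 and 3 in siCEBPA untreated and 3 and 5 in siCEBPA progestin libraries. Its summed counts in siCEBPA cells were 0.246 of those in siControl cells without hormone after scaling (95% exact interval 0.0751 to 0.632, counting error only) and 0.301 with hormone (0.117 to 0.693). The fitted log2 changes were -1.97 ± 0.64 and -1.68 ± 0.60 (adjusted p = 0.0196 and 0.0314). In this fit S100A8 reached the count filter's minimum of 10 read pairs only in siControl libraries. It thus entered these tests through the group where it was higher. Without the filter the call with hormone was lost (-1.70, edgeR adjusted p = 0.0758). Leaving out 1 library raised the adjusted p to between 0.0522 and 0.154 without hormone and between 0.0616 and 0.208 with hormone. With progestin S100A8 did not pass in any cells (adjusted p = 0.523, 0.517 and 0.872 in siControl, siCEBPA and ICRF). Both genes are best known from neutrophils and monocytes, whose 12 markers summed to 0.689 to 1.11 CPM in siControl, 0.443 to 0.756 CPM in siCEBPA and 0.555 to 0.828 CPM in ICRF libraries. Over all 12 libraries CD14 had 283 read pairs, ITGAM 139, CSF3R 115 and LYZ 108, while MPO, ELANE, FCN1, HBB and CD3E had at most 3 each. Of the 3 blood markers tested in the siRNA libraries, 1 passed after CEBPA siRNA. This was the neutrophil receptor gene CSF3R, with 12 and 46 read pairs in siControl untreated against 2 and 0 in siCEBPA untreated libraries, and 13 and 17 in siControl progestin against 5 and 2 in siCEBPA progestin libraries. It was lower in siCEBPA cells (adjusted p = 0.000932 without and 0.0137 with hormone). Like S100A8, CSF3R passed the count filter only through siControl libraries, so their shared direction was in part fixed by the filter. In ICRF libraries CSF3R averaged 0.028 CPM untreated and 0.056 with progestin, against 0.239 and 0.254 in siControl libraries. S100A8 (0.27 and 0.26 CPM) and S100A9 (9.12 and 7.78 CPM) instead had their highest group means with ICRF, differences that were not tested. The part of these markers in the S100A8 and S100A9 values was not tested.

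S100A10, the p11 protein that no longer needs calcium and binds annexin A2 at the plasma membrane, spans chr1:151982915-151994390 on the minus strand with 6 exon blocks. It was at 202 and 198 CPM in siControl untreated and 688 and 696 CPM in siControl progestin libraries. In siCEBPA cells it was at 276 and 260 CPM untreated and 881 and 860 CPM with progestin, and with ICRF at 363 and 355 against 547 and 569 CPM. The groups of S100A10 did not overlap, and siCEBPA progestin libraries were the highest. Its change with progestin was 1.78 ± 0.04 in siControl (3.43-fold, adjusted p = 6.27e-15), 1.69 ± 0.04 in siCEBPA (adjusted p = 1.12e-14) and 0.62 ± 0.03 with ICRF (adjusted p = 6.16e-21). The response with ICRF differed from that in siControl cells by -1.15 ± 0.05 on the log2 scale (adjusted p = 2.56e-13). After CEBPA siRNA it was higher by 0.43 ± 0.04 without and 0.35 ± 0.04 with hormone, the opposite direction to S100P.

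S100A11, a partner of annexins A1 and A2 (chr1:152032506-152047907, minus strand), stood at 514 and 532 CPM in siControl untreated and 694 and 648 CPM in siControl progestin libraries. It was lower in siCEBPA cells, at 409 and 386 CPM untreated and 589 and 555 CPM with progestin. It rose with progestin by 0.35 ± 0.05 and 0.52 ± 0.05, and its changes after CEBPA siRNA were -0.38 ± 0.05 and -0.22 ± 0.05 without and with hormone (adjusted p = 7.88e-06 and 0.00162). With ICRF the libraries overlapped, at 448 and 436 CPM untreated and 466 and 438 CPM with progestin (adjusted p = 0.716). S100A11 varied least of the members, over a range of 0.85 on the log2 scale across the 12 libraries, against 5.44 for S100P and a median range of 1.38 for all genes.

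S100A6, or calcyclin, which binds annexins and a ubiquitin ligase adaptor (chr1:153534599-153536244, minus strand), did not pass the test with progestin in either siRNA group. In siControl cells it stood at 84.2 and 81.9 CPM untreated and at 84.8 and 84.2 CPM with progestin. With this scaling the change was 0.01 ± 0.05 (adjusted p = 0.813), but it was -0.14 without scaling factors (adjusted p = 0.0113). It was higher in siCEBPA cells, at 130 and 122 CPM untreated and 138 and 134 CPM with progestin, by 0.61 ± 0.05 and 0.70 ± 0.05 (adjusted p = 2.43e-08 and 7.26e-09). Its highest level was in ICRF cells, at 241 and 236 CPM untreated and 218 and 217 CPM with progestin, a fall by 0.15 ± 0.03 (adjusted p = 0.000155). ICRF untreated libraries held 2.87 times the S100A6 level of siControl untreated libraries, a difference that was not tested.

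S100A1, best known from muscle as a regulator of calcium pumps and release channels (chr1:153627926-153632039, plus strand), rose with progestin in both siRNA groups. It stood at 6.42 and 6.20 CPM in siControl untreated and 15.2 and 13 CPM in siControl progestin libraries, a change of 1.15 ± 0.09 (adjusted p = 2.16e-08). In siCEBPA cells it was at 8.08 and 7.61 CPM untreated and 23.6 and 26.3 CPM with progestin, a change of 1.66 ± 0.09. The difference of the responses was 0.51 ± 0.13 (adjusted p = 0.0236), a call lost without siControl progestin replicate 2, siCEBPA untreated replicate 2 or siCEBPA progestin replicate 2 (adjusted p = 0.13, 0.0934 and 0.0732). On the CPM scale it had the same direction, with gains of 7.77 and 17.1 CPM. After CEBPA siRNA S100A1 was higher by 0.33 ± 0.10 without and 0.84 ± 0.09 with hormone (adjusted p = 0.0104 and 1.22e-06), the former call lost without siControl untreated replicate 2 (adjusted p = 0.0631) or siCEBPA untreated replicate 1 (adjusted p = 0.0901). With ICRF its libraries overlapped, at 4.49 and 4.95 CPM untreated and 5.08 and 4.59 CPM with progestin, and the response differed from that of siControl by -1.13 ± 0.14 (adjusted p = 7.11e-07).

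S100A13, a partner in the release of FGF1 (chr1:153618787-153631360, minus strand), overlaps S100A1 on the opposite strand over 235 exon bases, which were counted by strand. It was at 37.3 and 35.4 CPM in siControl untreated, 42.7 and 44.0 in siControl progestin, 50.8 and 49.9 in siCEBPA untreated and 68.3 and 67.6 CPM in siCEBPA progestin libraries. The 4 groups did not overlap. Its changes were 0.24 ± 0.05 and 0.42 ± 0.05 with progestin in siControl and siCEBPA cells, and 0.48 ± 0.05 and 0.66 ± 0.05 after the siRNA without and with hormone. The siControl rise was lost without scaling factors (adjusted p = 0.158). With ICRF it fell by 0.12 ± 0.05 (adjusted p = 0.036). DESeq2 did not call this fall (adjusted p = 0.0942), nor did edgeR without ICRF untreated replicate 1 or ICRF progestin replicate 2 (adjusted p = 0.421 and 0.199). A further 536 of its exon bases, 24.2%, are shared with a gene without a symbol on the same strand, and read pairs there would be assigned to neither.

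S100A16 (chr1:153606886-153613145) and S100A14 (chr1:153614255-153616986), both on the minus strand, are neighbours, and S100A14 is an epithelial member with an altered calcium loop. S100A16 rose with progestin from 226 and 232 to 361 and 358 CPM in siControl cells (0.64 ± 0.04, adjusted p = 5e-10) and from 293 and 284 to 436 and 442 CPM in siCEBPA cells (0.60 ± 0.04). With ICRF it went the other way, from 391 and 369 to 285 and 264 CPM, a fall by 0.48 ± 0.04 (adjusted p = 1.08e-13). The 2 responses differed by -1.12 ± 0.06 on the log2 scale (adjusted p = 1.89e-12). After CEBPA siRNA S100A16 was higher by 0.35 ± 0.04 without and 0.30 ± 0.04 with hormone.

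S100A14, its neighbour, was a low-level gene of 41 to 241 read pairs per library and moved the other way after the siRNA. It went from 1.75 and 1.60 to 2.56 and 2.91 CPM with progestin in siControl cells (0.70 ± 0.16, adjusted p = 0.00127) and from 0.672 and 0.649 to 1.4 and 1.2 CPM in siCEBPA cells (0.97 ± 0.21, adjusted p = 0.000788). All 4 siCEBPA values lay below all 4 siControl values, and the changes were -1.32 ± 0.19 and -1.06 ± 0.17 (adjusted p = 3.68e-05 and 0.000111). With ICRF it stood at 0.711 and 0.565 CPM untreated and 0.630 and 0.588 CPM with progestin, and these overlapped. The range of the ICRF libraries held both siCEBPA untreated values of S100A14. Keratinocyte and basal markers summed to 38.8 to 43.8 CPM in siControl, 44.7 to 54.9 in siCEBPA and 67.5 to 72.5 CPM in ICRF libraries, of which KRT10 alone made 32.1 to 64.6 CPM. Of the 7 tested, KRT5 and KRT6A were higher and TP63, IVL and SPRR3 lower with progestin in siControl cells, and in siCEBPA cells KRT5 and KRT6A were higher and TP63 and IVL lower. After CEBPA siRNA without hormone 3 were higher and none lower, by 1.89 ± 0.26 for TP63, 0.94 ± 0.11 for IVL and 1.81 ± 0.26 for SPRR3. With hormone 5 were higher and none lower. The part of these markers in the S100A14 values was not tested.

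The proteins that S100 members bind inside the cell were measured with a list of 35 genes, of which 30 were tested in the siRNA libraries. With progestin in siControl cells 17 of the 30 were higher and 6 lower (29.2% and 29.3% of all genes tested), and in siCEBPA cells 16 and 6 (29.9% and 28.4% of all genes). AHNAK, the giant scaffold bound by S100A10 with annexin A2, rose by 1.14 ± 0.05 and 1.17 ± 0.05, and ANXA2, annexin A2, by 0.87 ± 0.04 and 0.83 ± 0.04. With ICRF the responses of AHNAK and ANXA2 differed from those in siControl cells by -0.97 ± 0.06 and -0.83 ± 0.05 (adjusted p = 2.95e-11 and 1.32e-11). The S100A10 level per length was 1.69 and 1.73 times that of ANXA2 in siControl untreated libraries and 3.20 and 3.21 times with progestin. In CPM, though, ANXA2 was the higher gene, with means of 669 against 200 in siControl untreated libraries. A ratio above 1 therefore rests on the annotated exon lengths, while its change between groups does not. In siCEBPA cells the ratio was 2.44 and 2.36 untreated and 4.36 and 4.36 with progestin, and with ICRF 2.12 and 2.11 against 3.06 and 3.26. In each of the 3 settings both progestin libraries had a higher ratio than both untreated libraries; the ratio itself was not tested.

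**Figure D5:**
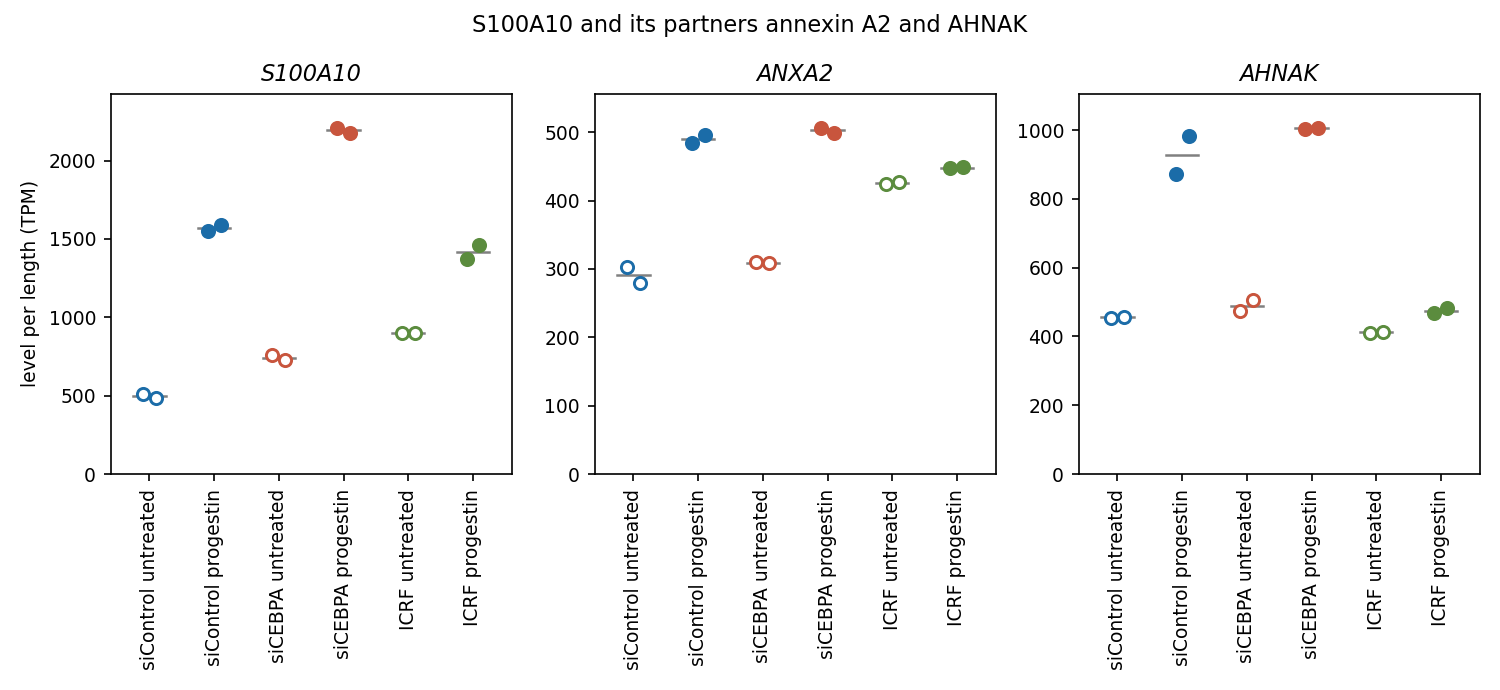
Points give the level per length (TPM) of S100A10 and of its partners ANXA2 and AHNAK in the 2 libraries of each of the 6 groups, with the mean as a grey line; open points are untreated and filled points progestin. The untreated and progestin libraries of the siRNA groups do not overlap for any of the 3 genes, and S100A10 gains more than ANXA2 (from 1.69 and 1.73 to 3.20 and 3.21 times the ANXA2 level in siControl cells). The size of this ratio rests on the annotated exon lengths, but its change does not.

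After CEBPA siRNA 8 of the 30 tested partners were higher and 9 lower without hormone, near the 22.6% and 24% of all genes, and 7 and 10 with hormone (22.5% and 22.1% of all genes). ATP2A2, the calcium pump that S100A1 regulates in muscle, changed by -0.77 ± 0.04 and -0.98 ± 0.04, while S100A1 itself was higher. With progestin, however, both genes rose, ATP2A2 by 0.39 ± 0.04 in siControl and by 0.18 ± 0.04 in siCEBPA cells. EZR, or ezrin, the partner of S100P, changed by -0.60 ± 0.04 and -0.34 ± 0.04, in the direction of S100P. EZR also rose with progestin in siControl and siCEBPA cells (0.24 ± 0.04 and 0.50 ± 0.04). With ICRF its mean instead went from 311 to 269 CPM with progestin, while S100P rose. MYH9, a non-muscle myosin heavy chain, rose with progestin by 0.89 ± 0.05 in siControl cells and fell with ICRF by 0.49 ± 0.03. With ICRF 8 of 31 tested partners rose and 16 fell (31.3% and 30% of all genes). The responses of 5 were above and of 18 below those in siControl cells (24.9% and 24% of all genes).

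Among 10 receptor genes for released S100 proteins, 6 were tested. With progestin 4 were lower and none higher in siControl cells (29.3% and 29.2% of all genes), and 3 and none in siCEBPA cells (28.4% and 29.9% of all genes). With ICRF 4 were lower and 1 higher (30% and 31.3% of all genes). AGER, which encodes RAGE, changed by -1.12 ± 0.22 and -0.91 ± 0.20 (adjusted p = 0.000482 and 0.00136) in siControl and siCEBPA cells. In siControl cells it went from 2.11 and 2.31 to 0.972 and 1.09 CPM. With ICRF its mean went from 1.37 to 0.878 CPM. Within these progestin comparisons AGER was lower where S100P was higher. AGER was also higher after CEBPA siRNA (0.55 ± 0.19 and 0.77 ± 0.24), where S100P was lower. Between ICRF and siControl untreated libraries, however, both genes were lower with ICRF. The means were 1.37 against 2.21 CPM for AGER and 11.97 against 38.93 CPM for S100P, differences that were not tested. After CEBPA siRNA 4 receptors were higher and 1 lower without hormone (22.6% and 24% of all genes), and 3 and 1 with hormone (22.5% and 22.1% of all genes). MCAM, an adhesion molecule that binds S100A8 with S100A9, was higher by 1.18 ± 0.09 and 1.47 ± 0.09, while those ligand genes were lower. In ICRF untreated libraries, MCAM, S100A8 and S100A9 all had higher means than in siControl untreated ones. These were 11.9 against 8.2, 0.27 against 0.16 and 9.12 against 6.77 CPM, differences that were not tested. BSG, or basigin, changed by -0.30 ± 0.05 and -0.24 ± 0.05. TLR4 had too few counts to be tested.

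Of 12 other S100 genes, 3 passed the count filter. S100A2, a member of basal epithelia, stood at 0.273 and 0.312 CPM in siControl untreated and 0.892 and 0.649 CPM in siCEBPA untreated libraries, higher by 1.38 ± 0.28 (adjusted p = 0.000683). S100A4, a metastasis-linked member, was higher by 0.39 ± 0.10 after the siRNA without hormone and did not pass with hormone (adjusted p = 0.0543). S100PBP, a binding protein of S100P and no S100 protein itself, rose with progestin by 0.23 ± 0.06 in siControl cells and by 0.42 ± 0.05 with ICRF, and did not pass in siCEBPA cells (0.09 ± 0.06, adjusted p = 0.214). Of 7 fused-type S100 genes, TCHH and TCHHL1 were tested, and TCHH, or trichohyalin, fell with progestin by 1.58 ± 0.25 in siControl and by 1.09 ± 0.23 in siCEBPA cells. With ICRF its change was 0.51 ± 0.26 (adjusted p = 0.0872), and this response differed from that in siControl cells by 2.10 ± 0.33 (adjusted p = 2.04e-05).

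Likeness of patterns was measured as the root mean square difference of log2 CPM over the 12 libraries. A prior count of 2 was added, which shrinks the differences of genes with few counts, such as S100A8 (2 to 32 read pairs per library). Each gene was centred on its mean but not scaled to its own spread. A smaller value is thus more alike in both the size and the direction of changes, and the libraries of a group share their treatment. Among 10816 genes of at least 5 CPM, TSC22D3 (0.53), IER5L (0.55) and PFKFB3 (0.55) were most like S100P, against a median of 1.94. For S100A9 they were DNAJC19 (0.16), RANBP9 (0.17) and NQO1 (0.21), against a median of 0.68. For S100A8 they were NQO1 (0.28), MRPL34 (0.33) and JUND (0.33), against 0.91, and for S100A14 ISG20 (0.25) and SH3KBP1 (0.27), against 0.84. Among the members the smallest values were S100A13 with S100A16 (0.22), S100A11 with S100A16 (0.33) and S100A11 with S100A13 (0.36), followed by S100A8 with S100A9 (0.39). S100A11, S100A13 and S100A16 also varied least around their own means (root mean squares 0.26, 0.29 and 0.32), so small values between them can come from flat profiles. The value of S100A11 with S100A13 was larger than either gene's own. S100A8 and S100A9 varied more around their own means (0.88 and 0.63), although the S100A8 value also holds the counting error of few read pairs. By this measure S100P was far from every other member, at 1.37 from S100A14 and more from the rest. Its own changes were the largest (1.94 around its mean, against 0.26 to 0.88 for the other members). The distance therefore does not tell whether its changes differ in direction from theirs. Of the 37 other genes within 100 kb of a member on chromosome 1, 13 were tested, of which 4 were higher and 5 lower with progestin in siControl cells (69.2% called, against 58.5% of all genes). After CEBPA siRNA without hormone 6 were higher and 3 lower (69.2% called, against 46.6% of all genes). With hormone 2 were higher and 2 lower after the siRNA (30.8% called, against 44.6%). With progestin 76.9% were called in siCEBPA cells (against 58.2%) and 33.3% of the 12 tested with ICRF (against 61.4%). In the difference of responses 0% were called for siCEBPA (against 7.24%) and 69.2% for ICRF (against 48.9%).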

How the data were processed

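RNA from T47D cells was sequenced in 12 libraries (6 groups of 2, from the titles). The authors deposited raw counts of read pairs per gene, made with featureCounts 1.5.1 in paired, reverse-strand mode on GENCODE 24 genes and hg38, from STAR alignments, per the file headers. The submitters' processing notes also name Trimmomatic. Multiply aligned reads were not counted, by the options in the headers, so genes with near copies are uncertain.

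Ensembl IDs were matched to symbols through a gene name table. CPM used TMM factors over 12 libraries, and TPM the file's gene lengths. Counts were tested in R 4.3.3 with the quasi-likelihood method of edgeR 4.0.16 (filterByExpr, TMM, glmQLFit with robust estimation, glmQLFTest, Benjamini-Hochberg adjusted p under 0.05). The SE divides the log2 change by the root of its F value. Fits were made for the 8 siRNA libraries (18351 genes), for the 4 ICRF libraries (18556 genes) and, for the ICRF difference, for all 12 (19003 genes). Alternatives were DESeq2 1.42.0, other scalings and filters, a replicate block, other sample sets and left-out libraries. In simulated counts with 200 changed genes per comparison, 78.6% to 94.4% of 1.5-fold and 92.9% to 100% of 2-fold changes were recovered.

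Named were all members, the smallest p-values of the partner, receptor and other S100 lists (a part of them is printed), CEBPA, and the genes most like 4 members, of which 1 is not reported here. Members, lists and tests were chosen with earlier results of these data known. Marker lists were luminal, blood, keratinocyte, and fibroblast and endothelial, and 1 keratinocyte symbol (LOR) was not matched. Numbers on the libraries were not taken as pairs.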

Additional observations from a re-analysis of the deposited data

Results flagged for a closer look

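These values stand apart because the test of the difference between responses to progestin passed its threshold (edgeR, adjusted over all genes). For siCEBPA against siControl the differences on the log2 scale were 1.31 for S100P and 0.51 for S100A1. For ICRF against siControl they were -1.60 for S100P, -1.15 for S100A10, -1.13 for S100A1, -1.12 for S100A16, -0.78 for S100A14, -0.36 for S100A13, -0.33 for S100A11 and -0.16 for S100A6. Without scaling factors the calls of S100A14 and S100A6 in this difference were lost (-0.63 and -0.006). S100A16 and S100A13 passed the test in both siControl and ICRF cells with opposite signs. For S100A16 both calls held under all alternatives run, and for S100A13 each was lost under at least 1.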

How the results depend on the processing

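Of 806 recomputed member changes, 741 kept direction and side of the threshold, 36 lost a call, 7 gained one and 22 changed sign, none of them a call at first. Of 50 calls, 41 held under every alternative on the log2 scale, and S100A8, S100A1, S100A6, S100A9, S100A13 and S100A14 held those lost. With upper quartile scaling, S100A6 changed by -0.097 in siControl and -0.028 in siCEBPA cells, and with ICRF S100A1 by -0.049 and S100A11 by -0.053. Without scaling factors S100A6 changed by -0.14 and -0.064. That scaling moved the median of all genes from -0.03 to -0.19 in siControl cells, and the share of calls that were higher from 49.97% to 33.9% (38.2% with upper quartile). In siCEBPA cells the share went from 51.3% to 33.3% (36.9%), after the siRNA from 48.5% to 65.3% without and from 50.5% to 64.9% with hormone, and in the ICRF difference from 50.9% to 65.2%.

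The S100P difference of responses was -127 CPM on the linear scale, an alternative chosen after seeing the data. Leaving out 1 library gave ranges across 0 for S100A6 (-0.0044 to 0.042) and S100A9 (-0.13 to 0.089) in siControl, S100A9 (-0.27 to 0.080) in siCEBPA, and, with ICRF, S100A1 (-0.055 to 0.096), S100A8 (-0.29 to 0.12), S100A11 (-0.028 to 0.064) and S100A14 (-0.24 to 0.087). In the siCEBPA difference they were -0.18 to 0.66 for S100A8 and -0.25 to 0.10 for S100A9. That difference had 1329 genes past the threshold, 692 to 1379 without 1 library (692 without siControl progestin replicate 1 and 779 without replicate 2) and 1 to 2 members. The replicate block raised it to 2271, ended no member's call and added those of S100A6 with progestin in siCEBPA cells (adjusted p = 0.0222) and of S100A11 in the difference (adjusted p = 0.0326). Deviations of same-numbered libraries were at most weakly related (r -0.03 to 0.07, and 0.015 to 0.07 between siRNA groups). These values cannot settle whether the numbers pair the libraries. Causes were not tested. S100A8 and S100A14 are limited by depth.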
